A study of Mus musculus with 2 samples.

Results

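The peaks described here are H3K9me2 peaks whose midpoint lay inside the body of a gene that RefSeq does not class as protein-coding, and inside no protein-coding gene body, on chromosomes 1 to 19. By that rule 91 of the 742 autosomal peaks of a wild-type embryonic mouse cortex and 649 of the 6092 of a TBC1D3 transgenic cortex were members, 740 of 6834 in all. The members were split by RefSeq class. Long noncoding RNA (lncRNA) genes held 84 wild-type and 574 transgenic peaks, pseudogenes held 7 and 69, and all other noncoding genes held 0 and 6. The rule used positions and gene classes alone, and no peak height.

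Chromatin immunoprecipitation with an antibody to H3K9me2 was sequenced from cortex of C57BL/6 embryos at embryonic day 15.5, in 1 wild-type library and 1 library of embryos that carried TBC1D3 as a transgene. TBC1D3 is a gene of humans and other hominoids that mice lack, and the series title pairs it with the histone methyltransferase G9a and with cortical progenitors. The promoter that drives the transgene, the number of transgenic lines and whether embryos were pooled were not given in the sources used here. The lists hold no expression values, so the labelled tissue could not be checked against its marker genes.

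H3K9me2, histone H3 carrying 2 methyl groups on lysine 9, is written mainly by G9a and its partner GLP and is known from broad domains over silent genes and gene-poor chromatin. Most lncRNA genes are transcribed at low levels and in few cell types, and many lie in the wide intervals between coding genes. Pseudogenes are copies of genes that no longer make a working protein, some of them pasted back into the genome from spliced RNA. H3K9me2 is also known over silent gene families that belong to other tissues.

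Peaks that overlapped the 300-base window around the start of a noncoding gene were few, and these windows show the local sequence at the edge of the rule. RefSeq (GRCm38.p6) gives, for each listed gene, 250 bases before the start to 50 after it. No wild-type peak outside coding bodies overlapped such a window of a noncoding gene. A transgenic peak did so at 8 genes, and at only 2 of them, Gm13582 and 1700084F23Rik, did the midpoint fall inside the gene. None of the 8 peaks covered the start site itself. Gm13582 lay just inside the rule, with its peak midpoint 60 bp into the gene, 6 fragments at the summit, a fold enrichment of 2.89 and a q of 0.363. The file headers say that q would not be calculated, yet both lists hold q values, which are used here as listed. Gm3331 lay just outside it, with the midpoint 75 bp before the start, 8 fragments, a fold of 3.78 and a q of 0.132. At Gm40264 and Gm46665 the whole peak also lay in the window, with midpoints 155 and 118 bp before the start. The 4 windows follow, 5′ to 3′ on the strand of the gene, with the bases under the peak in capitals.
Gm13582 (chr2:60975102-60975401, minus strand): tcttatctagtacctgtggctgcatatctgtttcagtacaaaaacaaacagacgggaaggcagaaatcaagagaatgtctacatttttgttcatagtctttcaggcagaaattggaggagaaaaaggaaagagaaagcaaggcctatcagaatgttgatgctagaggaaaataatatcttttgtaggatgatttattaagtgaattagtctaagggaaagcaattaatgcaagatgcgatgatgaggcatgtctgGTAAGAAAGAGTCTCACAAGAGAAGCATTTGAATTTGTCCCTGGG
Gm3331 (chr9:32782896-32783195, plus strand): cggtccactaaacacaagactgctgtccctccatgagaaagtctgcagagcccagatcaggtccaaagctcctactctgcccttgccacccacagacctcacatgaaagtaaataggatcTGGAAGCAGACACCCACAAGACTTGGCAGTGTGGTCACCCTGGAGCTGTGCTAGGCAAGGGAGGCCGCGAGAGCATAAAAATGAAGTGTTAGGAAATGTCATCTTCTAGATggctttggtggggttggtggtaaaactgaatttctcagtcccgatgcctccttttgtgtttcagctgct
Gm40264 (chr5:9034496-9034795, plus strand): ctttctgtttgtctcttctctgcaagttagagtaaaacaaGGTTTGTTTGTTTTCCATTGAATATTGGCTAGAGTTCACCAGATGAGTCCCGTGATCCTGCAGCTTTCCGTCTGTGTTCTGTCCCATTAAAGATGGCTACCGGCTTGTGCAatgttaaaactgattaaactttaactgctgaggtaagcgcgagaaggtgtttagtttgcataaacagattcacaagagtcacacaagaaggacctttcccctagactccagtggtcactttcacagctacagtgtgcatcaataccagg
Gm46665 (chr19:15639650-15639949, plus strand): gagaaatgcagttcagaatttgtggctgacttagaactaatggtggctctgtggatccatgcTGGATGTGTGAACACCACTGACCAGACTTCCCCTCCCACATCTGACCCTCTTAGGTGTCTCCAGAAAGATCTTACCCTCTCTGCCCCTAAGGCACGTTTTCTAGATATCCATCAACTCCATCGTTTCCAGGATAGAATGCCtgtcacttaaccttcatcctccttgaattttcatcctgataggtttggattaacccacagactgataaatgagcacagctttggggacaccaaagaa
The dinucleotide CG, which reads the same on both strands, occurred 2 times in the Gm13582 window, 4 times in that of Gm3331, 5 times in that of Gm40264 and 2 times in that of Gm46665. Of the 9291 lncRNA windows in the table, 32.1% held 2 CG or fewer, 54.9% held 4 or fewer and 63.5% held 5 or fewer. The 4 windows were thus spread around the lncRNA median of 4, below the median of 14 in coding windows.

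Some lncRNA genes contain a microRNA gene, a short hairpin that is cut into a small mature RNA which pairs with messenger RNAs through its seed. None of the 1136 genes that RefSeq classes as microRNA held a member peak in either library. They have only 0.0301 Mb outside coding gene bodies, too few bases for a count of 0 to show a difference. Host genes did hold peaks, at a distance from the hairpin. Rmst, an lncRNA of neural progenitors, carries Mir1251 and held a transgenic peak 20.2 kb from the hairpin. A930035F09Rik carries Mir21c and held 2 transgenic peaks, 51.6 and 22.9 kb away. 2610307P16Rik, next to the transcription factor gene Sox4, carries Mir6368 and held a peak in each library, 68.7 kb away in wild type and 127 kb away in the transgenic. The mature RNAs of these 3 hosts are shown with the seed, bases 2 to 8, in capitals, from RefSeq (GRCm38.p6).
mmu-miR-1251-5p: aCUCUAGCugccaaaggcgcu
mmu-miR-1251-3p: cGCUUUGCucagccaguguag
mmu-miR-21c: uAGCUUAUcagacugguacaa
mmu-miR-6368: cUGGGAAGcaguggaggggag
The 4 seeds differ from each other. The 3 hosts were picked, of 9 noncoding genes with a peak and a microRNA gene inside them, for a known neural role, for 2 peaks and for a peak in both libraries.

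The design asks how H3K9me2 in fetal cortex is placed when TBC1D3 is present. The authors called peaks in each library against its own input. The wild-type call used 26735120 ChIP tags, the transgenic call 20697113. Fragments were extended to 57 bp in the first call and to 111 bp in the second, and the second list was 8.21 times as long on chromosomes 1 to 19. With 1 library per genotype there was no replicate, no p-value was computed, and the intervals given here hold counting error only. The genotype cannot be told apart from the library, its depth and its call settings. Fold, p and q of a peak are the authors' values.

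Noncoding gene bodies held peaks more densely than coding gene bodies in both libraries, and about as densely as the genome outside genes. Bases in noncoding bodies alone made up 204 Mb, or 8.48% of those counted. They held 12.3% of the wild-type peaks (exact binomial 95% interval 9.99 to 14.8) and 10.7% of the transgenic peaks (9.89 to 11.5). The wild-type density was 0.447 peaks per Mb (exact Poisson 95% interval 0.360 to 0.548) in noncoding bodies, 0.214 (0.186 to 0.245) in coding bodies and 0.362 (0.329 to 0.398) outside genes. The transgenic densities were 3.19 (2.94 to 3.44), 1.77 (1.69 to 1.86) and 3.04 (2.94 to 3.14). Noncoding bodies were thus 2.09 times as dense in peaks as coding bodies in wild type (exact conditional interval 1.62 to 2.68) and 1.80 times in the transgenic (1.64 to 1.97). Among transgenic peaks with a fold of at least 5 the ratio was 1.36 (0.628 to 2.71), an interval that includes 1. Against the bases outside genes the ratios were 1.23 (0.973 to 1.55) and 1.05 (0.962 to 1.14), and both intervals include 1.

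**Figure D1:**
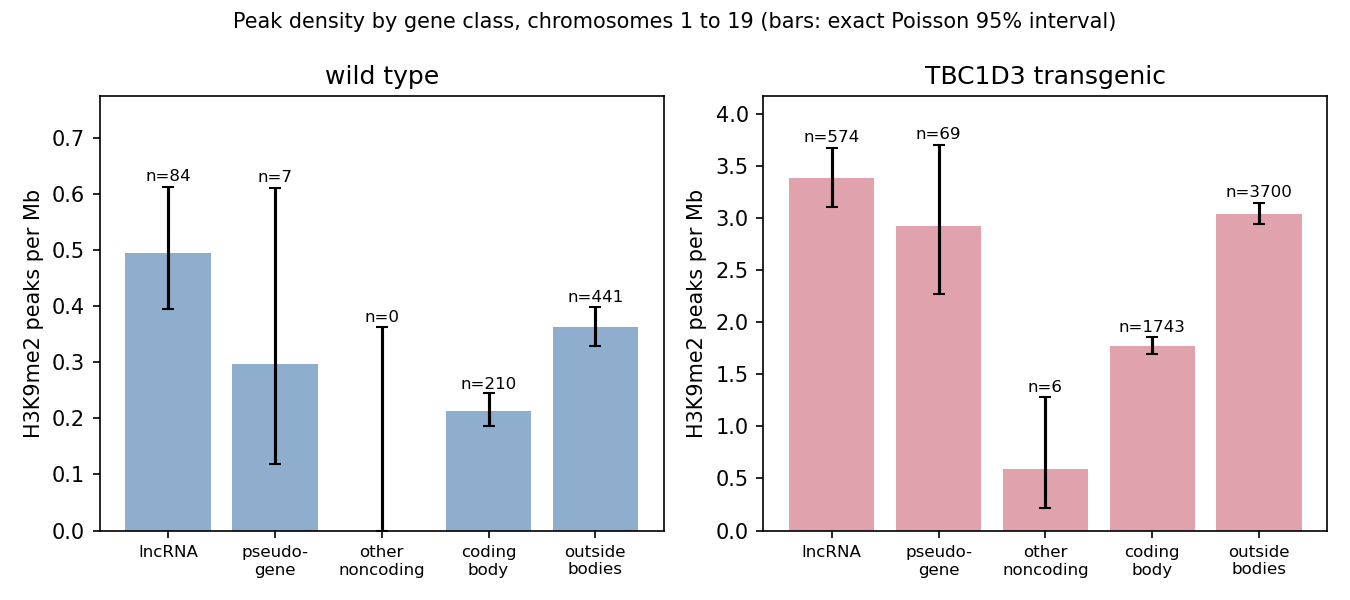
H3K9me2 peaks per Mb in the bodies of lncRNA genes, pseudogenes, other noncoding genes and coding genes and outside gene bodies, wild type on the left and TBC1D3 transgenic on the right, on separate linear axes. Bars start at 0, error bars are exact Poisson 95% intervals and n is the number of peaks. In both libraries lncRNA bodies stand above coding bodies (0.494 against 0.214 and 3.38 against 1.77 per Mb).

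The excess over coding bodies lay in lncRNA genes and, in the transgenic library, in pseudogenes. lncRNA bodies held 2.31 times the coding density in wild type and 1.90 times in the transgenic. Their density was also 1.36 times (1.07 to 1.73) and 1.11 times (1.02 to 1.21) that of the bases outside genes, with lower limits close to 1. Gaps in the assembly past 3 Mb were not taken out of the bases of any class. Their part in these ratios was not tested. Pseudogenes held 0.296 peaks per Mb in wild type, from 7 peaks, and 2.92 in the transgenic, from 69. Their ratio to coding bodies was 1.39 (0.550 to 2.91) in wild type and 1.65 (1.27 to 2.09) in the transgenic. Transgenic pseudogenes did not stand apart from lncRNA genes, at a ratio of 0.864 (0.663 to 1.11). The remaining noncoding genes, among them small RNA genes and the antigen receptor loci, were the exception, with 0.175 times the transgenic lncRNA density (0.0639 to 0.383). Per class, the transgenic list was 6.83 times the wild-type list in lncRNA genes, 9.86 times in pseudogenes, 8.30 times in coding bodies and 8.39 times outside genes.

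The difference from coding bodies was wider where coding genes were many. Chromosomes were divided into windows of 1 Mb by the number of coding genes counted in them. A coding body could reach into a window in which its gene was not counted. Windows with 0 coding genes thus still held 17.0 Mb of coding body. In transgenic windows with 0 coding genes, noncoding bodies held 2.97 peaks per Mb and coding bodies 2.17, a ratio of 1.36 (0.907 to 2.09). With 1 to 5 coding genes per window the ratio was 1.43 (1.25 to 1.63), with 6 to 15 it was 2.07 (1.76 to 2.42), and with over 15 it was 2.24 (1.64 to 3.01). Coding density fell from 2.52 to 0.974 peaks per Mb between windows of 1 to 5 and of over 15 coding genes, while noncoding density fell from 3.59 to 2.18. Against the bases outside genes the transgenic ratio stayed between 0.984 and 1.12 in all 4 kinds of window. The wild-type ratios to coding bodies were 0.951, 1.62, 2.26 and 3.85 in the same order, from as few as 10 noncoding peaks in the last.

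Leaving out genes with provisional names (Gm, LOC or Rik) removed nearly all members. The noncoding classes together then no longer stood apart from coding bodies. Of the members, 4 wild-type and 42 transgenic peaks remained, at 0.827 (0.223 to 2.15) and 1.05 (0.752 to 1.42) times the coding density. Both intervals include 1, and the wild-type interval also includes the 2.09 found with all names. Among lncRNA genes alone, transgenic density was 2.99 per Mb (1.90 to 4.49) in those with established names, 3.25 in Gm genes and 3.73 in Rik genes. The interval for established names lies above the 1.77 of coding bodies. Pseudogenes with established names stood at 2.30 (1.26 to 3.86). The remaining noncoding genes with such names, the antigen receptor loci among them, stood at 0.635 (0.233 to 1.38). They make up 9.45 Mb, beside 7.69 Mb of lncRNA genes and 6.09 Mb of pseudogenes with such names.

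Only a small part of the noncoding genes held a peak. Of 26154 noncoding genes, 92 (0.352%) held a wild-type member and 568 (2.17%) a transgenic one. Over genes of every class the shares were 0.625% and 3.78%, and over coding genes 0.91% and 5.4%. The noncoding share was therefore below the background, but 6276 of the 26154 lie wholly inside coding bodies and could hold no member. Noncoding genes are also shorter, with a median of 1.95 kb against 17.6 kb for coding genes. Of 12324 lncRNA genes, 85 (0.690%) and 496 (4.02%) held a peak. Of 9402 pseudogenes, 7 and 66 did. Of the transgenic genes with a peak, 490 held 1, 61 held 2 and 17 held 3 or more, and 6 was the most. In the wild type only Pvt1 and Gm30551 held 2.

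Genes with a peak were long. Their median length was 43.4 kb in wild type and 41.8 kb in the transgenic. lncRNA genes of at least 100 kb outside coding bodies numbered 233, and 39.1% of them (32.8 to 45.6) held a transgenic peak. In the bin from 50 to 100 kb 26.2% did, and from 2 to 5 kb 0.517% did. Transgenic density per Mb was 1.53 (0.762 to 2.73) in lncRNA genes of 2 to 5 kb, 2.30 from 5 to 10 kb, 2.56 from 10 to 20 kb, 3.52 from 20 to 50 kb and 4.50 (3.84 to 5.25) from 50 to 100 kb. It was back at 3.43 (2.90 to 4.03) at 100 kb and above. The 1224 lncRNA genes under 2 kb held 0 peaks in 1.45 Mb, which allows up to 2.54 per Mb. Wild-type lncRNA density was 0.555, 0.328, 0.377, 0.586, 0.584 and 0.443 per Mb in the bins from 2 to 5 kb upward, with overlapping intervals and no order by length.

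**Figure D2:**
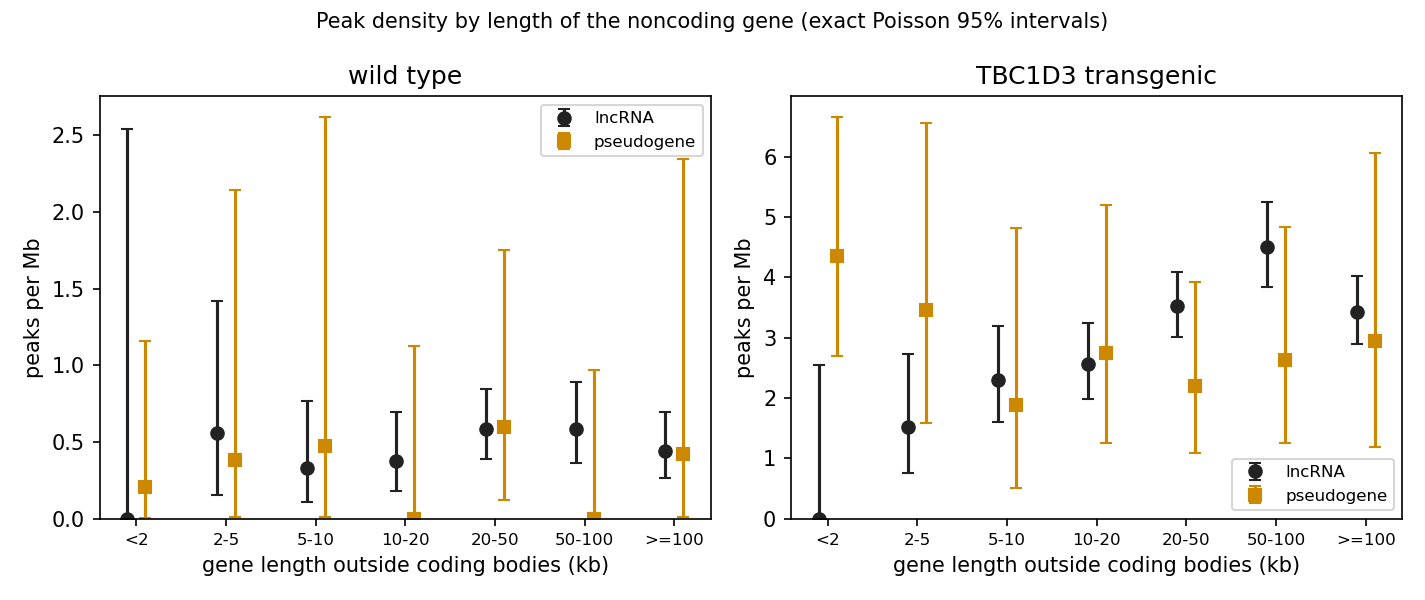
Peaks per Mb by the length of the gene outside coding bodies, for lncRNA genes (black circles) and pseudogenes (orange squares), with exact Poisson 95% intervals, on linear axes that differ between libraries. In the transgenic library lncRNA density is 1.53 from 2 to 5 kb and 4.50 from 50 to 100 kb. Pseudogenes under 2 kb stand at 4.36, with an interval that overlaps those of the longer pseudogenes.

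Short pseudogenes did not share the low transgenic density of short lncRNA genes. Transgenic pseudogene density had overlapping intervals in all length bins and no order by length. It was 4.36 per Mb (2.70 to 6.66) under 2 kb, 1.88 (0.513 to 4.82) from 5 to 10 kb and 2.94 (1.18 to 6.07) at 100 kb and above. The interval under 2 kb includes the 3.04 per Mb outside genes. Transgenic pseudogenes under 5 kb held 30 peaks in 7.42 Mb, or 4.04 per Mb, and lncRNA genes under 5 kb held 11 in 8.66 Mb, or 1.27 per Mb. The ratio was 3.18 (1.55 to 7.04). Under 2 kb the counts were 21 and 0, and under 10 kb they were 34 and 46, at a smaller ratio of 1.85 (1.15 to 2.95). The limit of 5 kb was singled out after the values were seen, so these ratios describe the list. At a −log10 p of at least 5, a check added after the data were seen, 10 and 0 of these peaks were left. The wild-type list held 2 and 4 such peaks, a ratio of 0.583 (0.0528 to 4.07), too few to place either above the other. Reads from a pseudogene and from its parent gene can be alike. The file headers name inputs marked uni and dedup, and what uni stands for is not stated there.

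Within lncRNA genes the share of peaks near the start did not stand apart from the share of bases there in the same genes beyond counting error. A strand and start site were listed for the genes of 69 wild-type and 459 transgenic members. Of the transgenic peaks, 6.75% (4.63 to 9.45) lay within 2 kb of a start, where 8.52% of the bases of the gene that holds the peak lie, averaged over peaks. Within 1 kb the share was 2.83% (1.52 to 4.79) of peaks against 4.31% of bases, and within 5 kb 18.1% (14.7 to 21.9) against 19.8%. The intervals include these base shares. Over all 9291 lncRNA genes with a listed start the base shares were higher, at 6.10%, 11.7% and 25.1% within 1, 2 and 5 kb, above the transgenic intervals. The wild-type shares were 8.70% (3.26 to 18.0) within 2 kb and 15.9% (8.24 to 26.7) within 5 kb, against 9.36% and 21.7% of the bases of the genes that hold them. The first 10th of the gene held 8.50% (6.11 to 11.4) of the transgenic peaks. Of the transgenic peaks 30.3% lay in the first part of the gene when it is divided in 3 equal lengths, 35.3% in the middle and 34.4% in the last. The median distance to the nearest start was 16.6 kb in wild type and 19.7 kb in the transgenic. Genes on the plus strand held 230 transgenic peaks and genes on the minus strand 229.

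**Figure D3:**
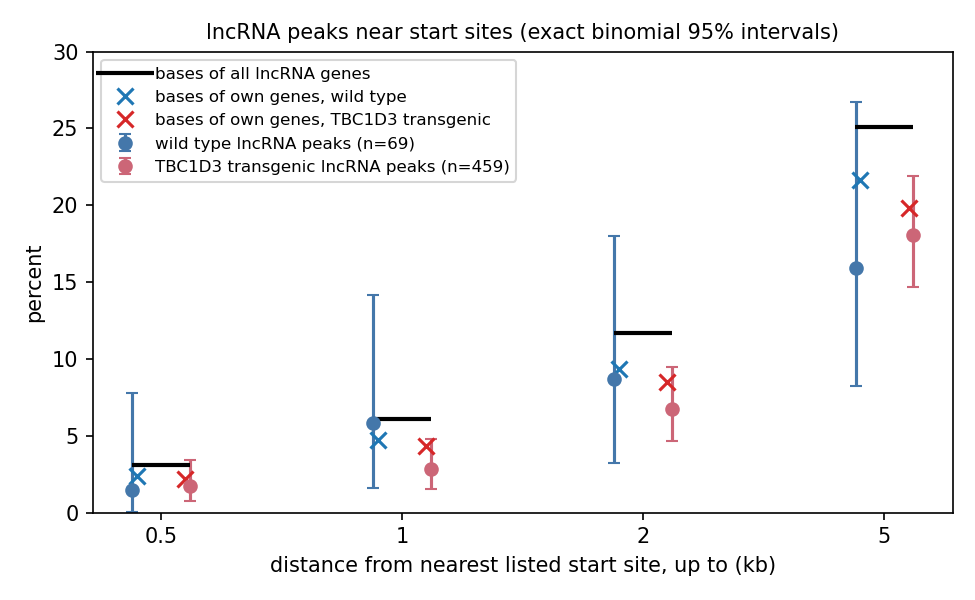
Percent of lncRNA member peaks within 0.5, 1, 2 and 5 kb of a listed start site, for the wild type (blue) and the transgenic (red), with exact binomial 95% intervals, beside the percent of bases that lie so near, over all lncRNA genes (black lines) and as the mean over the genes that hold the peaks (crosses). The transgenic points at 1, 2 and 5 kb, at 2.83%, 6.75% and 18.1%, lie below the black lines, while their intervals include the crosses.

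The starts of lncRNA genes with a peak were slightly poorer in G and C. The median GC content of the 300-base window was 45.7% in 402 genes with a transgenic peak and 46.0% in 70 with a wild-type peak, against 48.7% in all 9291. These medians carry no interval. At least 10 CG were found in 14.7% (11.4 to 18.5) of the windows of genes with a transgenic peak and in 19.7% of all lncRNA windows. The wild-type share was 14.3% (7.07 to 24.7), an interval that includes 19.7%. lncRNA genes with a peak were also longer, at a median of 45.0 kb (wild type) and 44.7 kb (transgenic) against 8.43 kb for all. The part of length in the difference was not tested.

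Single members were small and of modest height. The median wild-type member was 57 bp wide and rested on 6 fragments (range 5 to 10), with a fold of 3.98 (3.19 to 6.48). The median transgenic member was 114 bp wide and rested on 6 fragments (5 to 12), with a fold of 3.52 (2.85 to 5.86). In the wild type 87 of 91 members had a q of 1 and the lowest q was 0.136. In the transgenic the median q was 0.216, against 0.180 in coding bodies and 0.168 outside genes, and the lowest was 0.0673. A q of at most 0.1 was reached by 0 wild-type members and by 120 transgenic members, 18.5% (15.6 to 21.7). The share was 23.6% (21.6 to 25.6) of coding and 23.9% (22.5 to 25.3) of intergenic transgenic peaks, and the member interval ends below the second and just touches the first. The share of transgenic peaks with 8 or more fragments was 17.1% (14.3 to 20.2) in noncoding bodies, 24.2% (22.2 to 26.2) in coding bodies and 21.9% outside genes. In the wild type the corresponding shares were 14.3%, 11.9% and 14.5%.

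The strongest wild-type member lay in Gm12505, an lncRNA gene of 8.40 kb on chromosome 4. Its peak (chr4:55410865-55410928) held 10 fragments at a fold of 6.48 and a q of 0.136. Next by p came 4933406I18Rik (fold 5.62), Gm36865 (5.29), Gm21269 (5.17) and Pvt1 (5.06). Pvt1 is an lncRNA gene beside the oncogene Myc. Its 2 wild-type peaks, of 8 and 7 fragments, lay at chr15:62228790-62228864 and chr15:62245768-62245824, and the transgenic list held no peak in the gene. At the mean transgenic density of its chromosome 0.581 would fall there, so that count of 0 is not a detectable difference.

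In the transgenic library the strongest member lay in Gm12153, an lncRNA gene of 176 kb between the adrenergic receptor gene Adra1b and the interleukin gene Il12b. Its peak (chr11:44075214-44075371) held 10 fragments at a fold of 5.86 and a q of 0.0673. Further peaks of 8 and 6 fragments lay in the same gene. D930032P07Rik, whose body overlaps the transcription factor gene Glis3, held the most fragments of any member, 12 at a fold of 4.92, in a peak 15.2 kb from the Glis3 body. After these by p came Gm30821 (fold 5.43), Gm31815 (5.42), Gm4151 (5.09), 1700020G17Rik (5.06), C230014O12Rik (4.74), which lies 63.7 kb from Pbx3, Gm51424 and Gm40677 (both 5.04), and the pseudogene Gm9973 (5.03). Each of these peaks rested on 9 to 12 fragments. The peak in Gm9973 was tied by p with peaks in the lncRNA gene BC039771 and the pseudogenes Gm7115 and Speer5-ps1.

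A few long lncRNA genes collected several peaks. A930027H12Rik (chr15:87097493-87254023), of 157 kb, held 6 transgenic peaks where 0.410 would fall at the mean density of its chromosome (exact Poisson interval of the count 2.20 to 13.1). They carried 8, 8, 7, 7, 6 and 5 fragments at folds of 4.89, 4.34, 3.88, 3.76, 3.41 and 2.86. The single wild-type peak in the gene held 5 fragments at a fold of 3.44 and lay 26.8 kb from the nearest transgenic peak. Gm31333, in the interval between Eipr1 and Myt1l, a neuronal transcription factor gene, held 4 transgenic peaks in 57.8 kb where 0.144 would fall, and no wild-type peak. 1700019L22Rik held 5 in 800 kb (2.20 at the mean) and D5Ertd615e 4 in 415 kb (0.910). Gm34282, between Insc and Sox6, held 3 in 38.8 kb (0.0869). These genes were named because they held the most peaks, so their counts describe the list and test nothing. Of the transgenic members 63 lay within 10 kb of another transgenic peak, 9.71% (7.54 to 12.2), beside 10.3% of all transgenic peaks. In wild type 0 of the 91 members lay so near to another peak (interval up to 3.97%), beside 1.08% of all peaks.

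**Figure D4:**
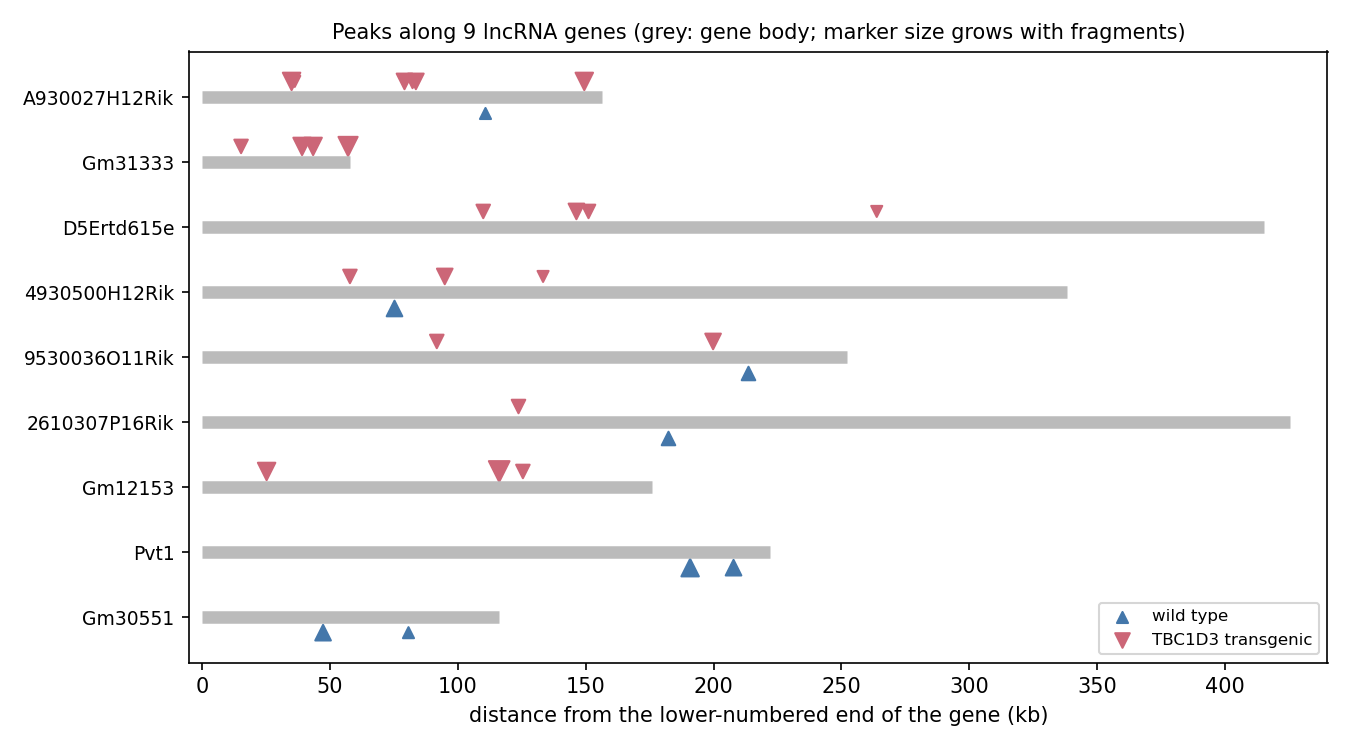
Member peaks along 9 lncRNA genes, each drawn as a grey bar from its lower-numbered end (x axis in kb), with transgenic peaks as red triangles above the bar and wild-type peaks as blue triangles below it. Marker size grows with the fragments at the summit, from 5 to 10. A930027H12Rik carries 6 transgenic peaks and 1 wild-type peak, while Pvt1 and Gm30551 carry 2 wild-type peaks each and no transgenic one.

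Few members were found at the same place in both libraries. Peaks of the 2 lists overlapped at 1 member site, in Gm40296 (wild type chr5:44365673-44365729, transgenic chr5:44365657-44365774), with 6 fragments and a fold of 3.35 in wild type and 7 fragments and a fold of 4.03 in the transgenic. Gm30853 held a peak of each library 0.176 kb apart (folds of 3.38 and 3.60), and St8sia3os 0.771 kb apart (3.51 and 3.52). Within 10 kb there were 4 further genes with a peak of each library, namely Gm20043 (3.87 kb apart), Gm34133 (4.84 kb), Gm10790 (8.89 kb) and 4921531P14Rik (9.84 kb). These 7 were 7.69% of the wild-type members (3.15 to 15.2), beside 10.1% of all wild-type peaks, and 1.08% of the transgenic members, beside 1.33% of all transgenic peaks. The interval of the member share includes the share over all wild-type peaks.

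At the level of genes 22 held a peak in both libraries, 23.9% of the wild-type genes (15.6 to 33.9) and 3.87% of the transgenic genes. These shared genes were long, with a median of 99.2 kb. Among noncoding genes with at least 10 kb outside coding bodies, 27.5% (18.1 to 38.6) of the 80 with a wild-type peak held a transgenic peak, against 10.1% (9.29 to 11.1) of those without. At 20 kb and above the shares were 31.4% (20.9 to 43.6) and 15.6% (14.2 to 17.1), and at 30 kb and above 37.3% (25.04 to 50.9) and 21.1% (19.1 to 23.2). In these 3 sets the intervals do not overlap. At 50 kb and above the shares were 43.6% (27.8 to 60.4) of 39 and 28.4% (25.3 to 31.7) of 798, and at 100 kb and above 55.6% (30.8 to 78.5) and 37.4% (31.2 to 43.9), with overlapping intervals. In each set the genes with a wild-type peak were also longer, at a median of 48.5 against 21.7 kb from 10 kb on and of 99.5 against 77.1 kb from 50 kb on, and the part of length in the difference was not tested.

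Several of the 22 shared genes have well-known neighbours. 4930500H12Rik, which lies between the axon guidance receptor genes Robo1 and Robo2, held 1 wild-type peak of 7 fragments (fold 4.40) and 3 transgenic peaks of 7, 6 and 5 fragments (folds 3.46, 3.34 and 3.02). 9530036O11Rik, whose body overlaps the morphogen gene Shh, held 1 wild-type peak (fold 4.01) and 2 transgenic peaks (3.82 and 3.36), the nearest of them 13.6 kb apart. E430016F16Rik lies 0.032 kb from Ntrk3, a neurotrophin receptor gene, and held a peak of 8 fragments in wild type and of 7 in the transgenic. A single peak per library also lay in each of 2610307P16Rik, 63.5 kb from Sox4, Gm32124, 50.8 kb from Sox5, Gm20043, 50.6 kb from Gli3, and Gm12506, 0.235 kb from Klf4, all of them transcription factor genes. Gm41323, Gm31847 and St8sia3os, like 4930500H12Rik, held 1 wild-type and 3 transgenic peaks. The neighbours were read after the genes were known and were not tested for enrichment.

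Named lists of noncoding genes were mostly empty of member peaks. Of 9 imprinted noncoding RNA genes, such as H19, Meg3, Airn and Snhg14, none held a member in either library, where 1.95 transgenic peaks would fall at chromosome means, so that absence is not detectable at this depth. Kcnq1ot1 and Peg13 lie wholly inside coding bodies and could hold none. The body of Snhg14 held 1 transgenic peak, but its midpoint lay in a coding body too, so it was no member. Of 25 lncRNA genes of neural development 0 held a wild-type peak and 2 a transgenic one, with 4.01 at chromosome means. The 2 were Rmst (chr10:92157397-92157507, 8 fragments, fold 4.29) and Nkx2-2os, which runs opposite the transcription factor gene Nkx2-2 (7 fragments, fold 4.10). Sox2ot, Pax6os1, Miat, Dlx6os1, Emx2os and Six3os1 held none. Neither did any of the 15 widely expressed RNA genes, Malat1 and Neat1 among them, the 14 microRNA host genes of a fixed list (1.78 transgenic peaks at chromosome means), 138 snoRNA genes picked by names that start with Snor or Scarna, of 1276 in the table that all held none, or the 665 immunoglobulin and T cell receptor segments (0.787). These lists span too few bases for a count of 0 to show a difference. Of 227 genes named as opposite-strand or antisense, 1 held a wild-type peak (St8sia3os) and 6 a transgenic one, with 8 transgenic peaks beside 6.36 at chromosome means.

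Peaks in pseudogenes rested on the same few fragments as those in lncRNA genes, with a median of 6 in both libraries. The 7 wild-type peaks lay in Gm30666 (9 fragments, fold 4.86), Gm12641 and Rdh18-ps (7 fragments each), the second a retinol dehydrogenase copy, and Gm11251, Gm15766, Gm518 and Gm12026. The strongest transgenic ones lay in Gm9973, Gm7115 and Speer5-ps1 (9 fragments and a fold of 5.03 each), Gm7064 (9, 4.85), Gm9678 (8, 4.89) and Gm8877 (8, 4.80). Mx1 and Mx2, interferon-induced antiviral genes that RefSeq lists as transcribed pseudogenes in this strain's genome, held 1 transgenic peak each, of 6 fragments. Of 566 olfactory and vomeronasal receptor pseudogenes, relics of large families of odour and pheromone receptors, 2 held a transgenic peak (Olfr964-ps1 and Olfr1545-ps1). At chromosome means 5.09 peaks would fall there, within the exact Poisson interval of a count of 2 (0.242 to 7.22). None of the 268 ribosomal protein pseudogenes held one, where 0.454 transgenic peaks would fall at chromosome means, so that count of 0 shows no difference.

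The antigen receptor loci stood out by how few peaks they held. These regions, from which B and T cells assemble their receptor genes, appear in RefSeq as single long noncoding entries, 8.71 Mb in all outside coding bodies. The transgenic list held 5 peaks there where 22.4 would fall at chromosome means, a density 0.189 times that outside genes (0.0613 to 0.441). The immunoglobulin loci Igk and Igh, of 3.17 and 2.75 Mb, held 0 peaks against 8.07 and 6.85, and a count of 0 over both allows up to 3.69. These 2 loci were singled out after their counts were seen. The T cell receptor loci were nearer their chromosomes, with 2 peaks in Tcra against 4.75 and 2 in Tcrb against 1.52. Igl held 1 and Tcrg 0. In the wild type 0 peaks fell where 2.47 would at chromosome means, which is not detectable at this depth. Of these 5 peaks, 1 lay in the lncRNA gene Gm30275 inside Tcra and Tcrd and was counted as lncRNA. The other 4 and 1 each in Gm4151 and Gm3740, both listed as miscellaneous RNA, were the 6 members of the remaining class.

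**Figure D5:**
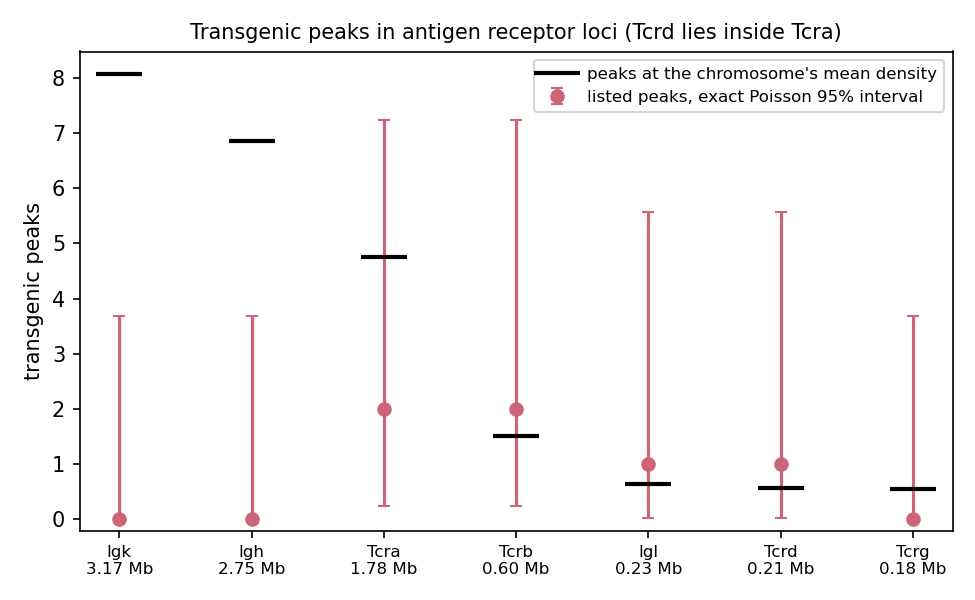
Transgenic peaks in each antigen receptor locus (red points, exact Poisson 95% intervals, y axis in peaks) beside the number that the mean density of its chromosome would give (black lines), with the length of the locus in Mb under its name. Igk and Igh hold 0 peaks where 8.07 and 6.85 would fall, and Tcrd lies inside Tcra.

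Distances to coding genes were compared with those of peaks outside gene bodies. The median member lay 66.9 kb from the nearest coding body in wild type and 88.9 kb in the transgenic, against 77.9 and 106 kb for peaks outside genes. Over 500 kb away lay 3.30% of the wild-type and 7.24% of the transgenic members, against 7.03% and 12.4% of the peaks outside genes. Within 2 kb of a coding body lay 0 wild-type and 11 transgenic members, the nearest at 0.097 kb. A further 14 wild-type and 101 transgenic peaks lay in a noncoding and a coding body at once and were left out by the rule. Of the members 3 and 20 lay in more than 1 noncoding gene and were counted under the class of the shortest. Densities by gene length and by kind of name instead counted a peak, and its bases, in each gene that holds it. Counted so, lncRNA genes held 591 transgenic peaks in 177 Mb, beside 574 in 170 Mb with 1 class per peak.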

How the data were processed

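The data were 1 list of H3K9me2 peaks for a wild-type and 1 for a TBC1D3 transgenic cortex. Per the file headers, MACS 2.1.0.20150420 was run by the authors on each library with its own input, at a p cutoff of 0.001, without broad calling, with fragments extended to 57 and 111 bp. The same headers say that q would not be calculated. The submitters' processing notes name BWA and mm10. The deposited pileup signal is the fragment coverage at the summit, per the file headers, and was divided by the ChIP scaling (0.951 and 1) to give whole fragments, all within 0.00491 of a whole number. The deposited fold enrichment is the authors' ratio of pileup to local background, and the peak caller's −log10 p and −log10 q were taken as the authors deposited them.

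Peak midpoints were placed with Python 3.11.15, pandas 2.3.3 and scipy 1.17.1 on RefSeq genes of GRCm38.p6, the mm10 assembly. Each base from 3 Mb on was given 1 class. Coding bodies came first, then the shortest noncoding gene. Densities by gene length and by kind of name were summed over genes, so overlapping genes share peaks and bases there. In all, 328 genes with a start under 3 Mb were left out as likely scaffold genes. Shares have exact Clopper-Pearson intervals, counts exact Poisson intervals and density ratios exact conditional binomial intervals, at 95%, and the code was tested on simulated data. Sequences come from RefSeq tables. No genome was used, so the bases under peaks away from starts are not shown.

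The members and lists were chosen with earlier results of these data known. Named were, per library, the 10 members with the lowest p and the 10 genes with most peaks, up to 12 genes with a peak in both, up to 4 per list, members within 10 kb of the other list's peaks, and up to 6 pseudogenes and 6 other genes by p. Others were named after their values were seen. Alternatives were a −log10 p or fold of at least 5, the summit, a 2 kb distance or extension, any overlap, merging, name filters and a shortened transgenic list.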

Additional observations from a re-analysis of the deposited data

Results flagged for a closer look

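Chromosome X lies outside the rule and was used in no comparison. The transgenic list held 7 peaks in noncoding gene bodies there, of its 161 peaks on X, 4.35% (exact binomial 95% interval 1.77 to 8.75). The wild-type list held 0 of its 1 peak on X. With 1 wild-type peak on X in all, its count of 0 shows no difference between the libraries. The transgenic share was below the 10.7% of the autosomal transgenic peaks. The share of bases in noncoding bodies on X was not counted, so no density can be compared. The 7 peaks are listed because they appeared in data outside the main measurement. The 7 genes were Gm15155, Gm15212, Gm1720, Gm26618, Gm33605, Gm41 and Gm7134.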

How the results depend on the processing

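Of 77 values under alternatives 40 kept their direction and size, 36 moved and 1 reversed. The summit, a distance of over 2 kb from coding bodies, any overlap, merging within 1 kb and bodies extended by 2 kb moved none. With −log10 p limited to 5 or more, the ratio of noncoding to coding density was 3.06 (wild type) and 1.60 (transgenic), genes with a peak 26 and 177, median fold 4.82 and 4.29, shared genes 2, and the transgenic member and lncRNA shares 9.25% and 84.7%. Pseudogenes and lncRNA genes under 5 kb then held 10 and 0 transgenic peaks. At a fold of at least 5 (62 and 162 peaks) the ratio was 3.10 and 1.36, the lncRNA share 77.8% and 63.6%, genes 9 and 11, median fold 5.06 and 5.04 and shared genes 0. The transgenic share was then 6.79% (3.44 to 11.8), an interval that includes the 8.48% of bases. The interval of that transgenic ratio, 0.628 to 2.71, includes 1. Without Gm, LOC and Rik genes the ratio was 0.827, reversed, and 1.05, member shares 0.539% and 0.689%, lncRNA shares 75% and 54.8%, genes 3 and 34, shared genes 1 and the wild-type median fold 4.71. The intervals of these ratios, 0.223 to 2.15 and 0.752 to 1.42, both include 1. For a transgenic list as short as the wild-type one the share was 8.09% (6.23 to 10.3), an interval that also includes 8.48%. The ratio was then 1.46, lncRNA share 83.3%, genes 58, median fold 4.74 and shared genes 4. Stricter limits keep fewer peaks by construction. For the ratios and shares the cause was not tested. No paired analysis was possible because each genotype has 1 library, so no interval holds replicate error. About 6 fragments carry a peak, so single genes with 0 or 1 peak are not told apart.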

Other observations

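Noncoding density in the transgenic library was compared between chromosomes. The chromosomes named were picked as extremes after their values were seen, and the differences between them were not tested. It was 5.26 peaks per Mb of noncoding body (exact Poisson 95% interval 3.91 to 6.91) on chromosome 8, 4.76 (3.23 to 6.76) on chromosome 16 and 4.74 (3.52 to 6.25) on chromosome 10, and 2.08 (1.37 to 3.02) on chromosome 7, the lowest of the 19. Members were 15.4% of the peaks of chromosome 10 and 14.7% of those of chromosome 8, against 7.08% on chromosome 17. In wild type chromosomes 8 and 10 held 4 members each, at 0.412 and 0.379 per Mb, while chromosome 15 held 7 (0.803 per Mb) and chromosome 14 held 1 (0.0838 per Mb).

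A few lncRNA genes with an established name held 1 transgenic peak each and no wild-type peak. They were picked out after their values were seen. Morrbid, which controls the lifespan of short-lived myeloid cells, held a peak of 7 fragments at a fold of 3.76. Lexis1, an lncRNA of liver cholesterol metabolism, held one of 8 fragments at a fold of 3.03. Wincr1 also held one of 8 fragments, at a fold of 3.03. At the mean wild-type density of their chromosomes 0.0409, 0.00421 and 0.0105 peaks would fall in Morrbid, Lexis1 and Wincr1. The wild-type counts of 0 thus show no difference between the libraries. A transgenic member was held by 2.17% of all noncoding genes.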
